A study of Mus musculus with 9 samples.

Results

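Liver RNA of wild-type mice under short-term caloric restriction (WTCR) was compared with that of wild-type mice fed ad libitum (WTAL), on the 3 arrays labelled WTCR and the 3 labelled WTAL, 6 of the 9 arrays of the series. All probe sets that carry 1 gene symbol were followed, 21780 of 28815, for 19935 genes. The question was which genes the liver of a middle-aged mouse turns up or down when calories are short. All animals were females of 15 to 16 months on a C57BL/6J background, kept on a 12 h light and 12 h dark cycle. WTAL mice had free access to standard rodent chow, and WTCR mice were wild-type animals held first on a mild and then on a strict restriction. Per the study's methods the mice were housed singly and each array holds the liver of a different mouse, with 3 mice in a group, so every value below rests on 3 against 3 animals. The 3 remaining arrays, from *Dgat1*-/- mice fed ad libitum, enter only the estimate of the spread between mice.

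The liver answers food shortage by a change of fuel. Insulin falls and glucagon and glucocorticoids rise, fat is released and oxidized, amino acids are broken down for glucose and nitrogen leaves as urea, while synthesis of fat and sterols slows. The same organ runs a circadian clock, in which CLOCK and BMAL1 drive Per, Cry and Rev-erb genes that in turn repress them, and feeding time sets the phase of that clock. It also makes most plasma proteins and holds resident immune cells, above all Kupffer cells. The hour of feeding and of tissue collection is not given in the sources used here. A different phase of the clock at collection cannot be told apart from the restriction itself in any gene below.

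The labels were first set against the data. *Dgat1*, whose product acylates diacylglycerol to triglyceride, had log2 signals of 7.86 and 8.04 in WTAL replicates 1 and 3 and of 8.90, 8.76 and 8.56 in the WTCR mice. The array labelled WTAL replicate 2 gave 5.67, among the 6.14, 5.84 and 5.39 of the *Dgat1*-/- arrays, which goes against its label. For each gene group the number of genes called is therefore given with and without it. *Xist*, which marks female cells, lay between 9.94 and 10.39 on the 6 arrays and the Y-linked *Uty*, *Kdm5d* and *Eif2s3y* at 4.14 or below, as the label female requires. Albumin lay between 14.2 and 14.3 on all 6 arrays. The first principal component of the 6 arrays held 49.5% of the variance and set WTAL (17.0 to 25.5) apart from WTCR (-23.8 to -20.7). WTAL replicate 2 was the WTAL array nearest to WTCR on it, at 17.0. The second component, with 19.4%, set WTCR replicate 1 (23.1) apart from WTCR replicates 2 and 3 (-14.1 and -8.9). The SD between mice of a group had a median of 0.0971 (log2) in WTAL and 0.104 in WTCR. Log2 signals of different probe sets are not compared with each other here, and with 3 arrays in a group the precision of each value is limited by their number.

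A gene was said to rise or fall when its fold change exceeded 1.3 with an unadjusted limma p under 0.05, the thresholds the study used for differential expression. By that rule 909 probe sets (4.17% of all) were higher and 894 (4.10%) lower in WTCR than in WTAL livers. At a Benjamini-Hochberg adjusted p under 0.05 from limma there were 360 higher (1.65%) and 318 lower (1.46%). Large changes were more often decreases: 72 probe sets rose and 142 fell beyond 2-fold, and 11 rose and 15 fell beyond 4-fold (80 and 161, and 13 and 19, without WTAL replicate 2). Without WTAL replicate 2 the rule called 851 higher (3.91%) and 982 lower (4.51%), and 172 (0.790%) and 207 (0.950%) passed the adjusted p. Of the calls made with all arrays, 747 increases and 796 decreases were made again without it, 260 were lost, 290 were gained and 0 changed direction. A core of 476 increases and 531 decreases was called in all 6 fits that left out 1 WTAL or WTCR array.

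**Figure D1:**
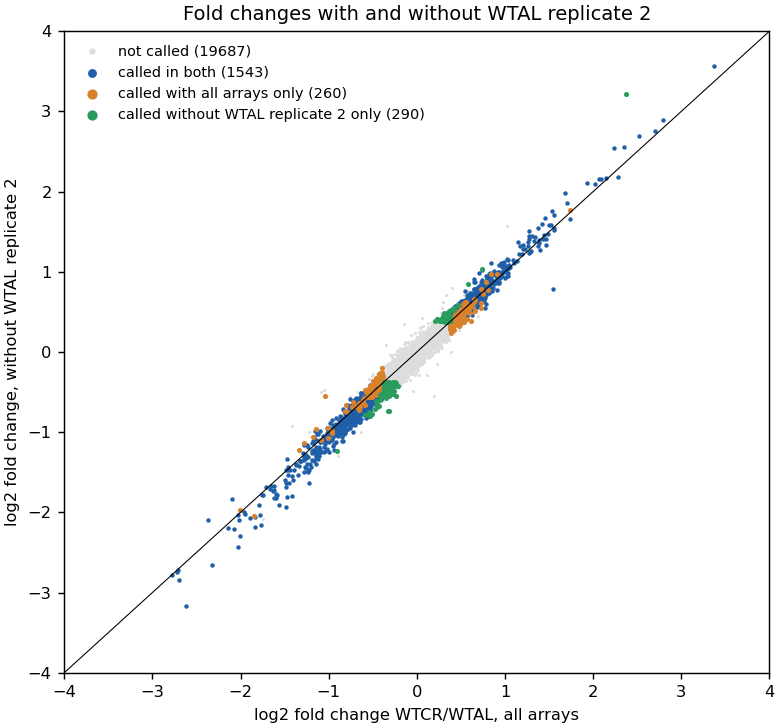
Log2 fold change of WTCR over WTAL for the 21780 probe sets with 1 gene symbol, fitted with all arrays (x axis) and without the array labelled WTAL replicate 2 (y axis); the diagonal marks equal values. Blue points (1543) were called both ways and stay near the diagonal, orange points (260) lost and green points (290) gained their call, and no call lies in the opposite quadrant; *Dgat1*, at 1.55 and 0.79, is the blue point farthest below the diagonal on the right.

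Bright probe sets leaned upward. In the brightest 10% of probe sets, 13.5% rose and 8.31% fell, with a median log2 fold change of 0.095, while in the dimmest 10% 0.184% rose and 0.0918% fell. Another normalization between arrays, cyclic loess, which removes trends with brightness, brought the median of the brightest 10% to -0.017. With it the rule called 668 probe sets higher (3.07%) and 1056 lower (4.85%), so that increases made up 38.7% of calls in place of 50.4%. Its counts are given beside each gene group whose members are mostly bright.

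Gene groups were taken as 33 lists of liver pathways and 11 lists of cell type markers, 1 probe set for each gene. The median log2 fold change over all genes was 0.0023. Of them 4.0% rose and 4.26% fell (3.86% and 4.57% without WTAL replicate 2, 3.02% and 5.02% under cyclic loess). These are the shares to set beside the counts below for lists that are not mostly bright. For mostly bright lists, the 13.5% higher and 8.31% lower of the brightest 10% of probe sets are nearer. Such lists include proteasome genes (28 of 35 in that 10%) and apolipoprotein genes (18 of 20). Others are acute phase and complement (24 of 29), bile acid (17 of 20), cholesterol (16 of 20) and endoplasmic reticulum chaperone genes (17 of 23). NRF2 and antioxidant (16 of 22), fat synthesis (14 of 20) and glucose release and glycogen genes (13 of 20) belong here too. Cold-inducible and heat shock genes (12 of 21) and female-biased genes (8 of 14) do so less clearly. The interferon-stimulated genes had the highest share of decreases, 32 of 35, and clock output genes the highest share of increases, 14 of 19. The lists were chosen with earlier results of these data known, so their shares describe the lists and do not test them. Mitochondrial ribosomal proteins, with 3 higher and 1 lower of 77, stayed near the shares of all genes (2 and 3 without WTAL replicate 2, 7 and 1 without WTCR replicate 1).

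**Figure D2:**
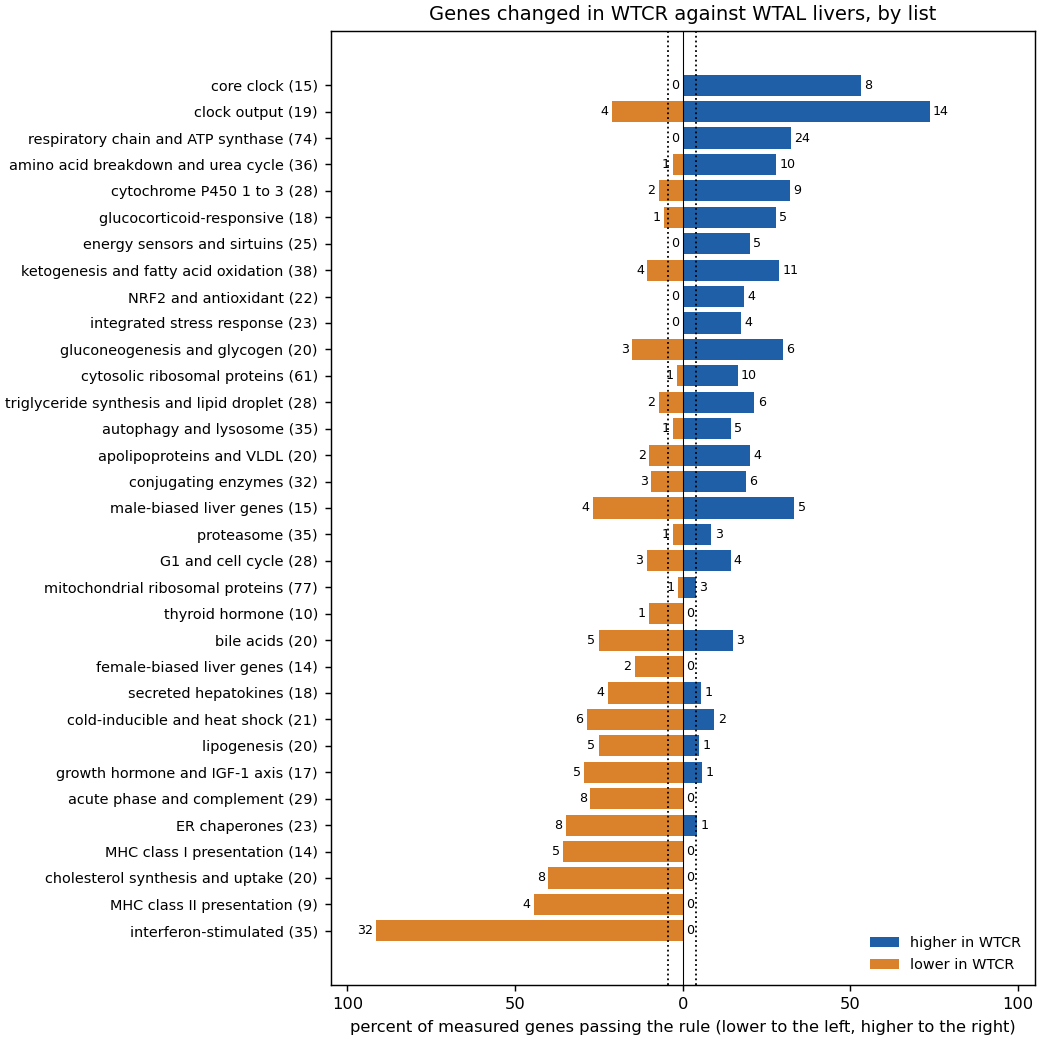
Percent of the measured genes of each list that were higher (blue, to the right) or lower (orange, to the left) in WTCR than in WTAL livers at a fold over 1.3 and an unadjusted limma p under 0.05; the number of genes called stands at the end of each bar, the number measured after the list's name, and the dotted lines are the shares of all genes, 4.0% higher and 4.26% lower. Clock and respiratory chain genes lie at the top, and interferon, antigen presentation and sterol genes at the bottom.

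The 20 genes with the largest increase and the 20 with the largest decrease were taken among those with an adjusted p under 0.05, no overlap between the groups and the same call without WTAL replicate 2. The fit without that array was part of the choice. All 40 also kept their call, which uses the unadjusted p, in the other 5 fits that left out 1 array and under cyclic loess. Without WTAL replicate 2, limma's adjusted p was above 0.05 for *Phf11c* (0.129), *Serpinb1a* (0.126), *Ugt3a1*, *Ces3a*, *Cxcl9*, *Ugt2b37*, *Dio1* and *Jchain* (0.0567). Among the increases 7 belong to the clock or its output: *Ciart*, *Rgs16*, *Usp2*, *Lpin1*, *Dbp*, *Per1* and *Wee1*. The cold-inducible RNA-binding proteins *Rbm3* and *Cirbp*, the retinoic acid hydroxylase *Cyp26a1*, the bile acid enzyme *Cyp39a1* and the apolipoprotein *Apoa4* were also among them. So were genes of signalling and chromatin. *Nrg4*, a secreted EGF-family ligand, measured 5.94, 6.18 and 5.96 in the WTAL mice and 7.80, 7.20 and 7.59 in the WTCR mice. It was 2.84-fold higher (log2 1.5 ± 0.16, limma's SE, 3 mice in each group, limma's adjusted p = 0.00646). Here and below, ± gives limma's SE, whose spread is estimated over all 9 arrays and not from these 2 groups alone. *Smad9*, a transducer of BMP signals, rose by 1.49 ± 0.12 and *Map2k6*, a kinase upstream of p38, by 1.44 ± 0.20. *Setdb2*, a histone methyltransferase, was tight within each group, with 6.24, 6.20 and 6.34 in WTAL and 7.97, 7.72 and 7.77 in WTCR (1.56 ± 0.11). *Phf11c*, a gene of the same chromosome whose product is a PHD finger protein, was more variable, 4.73, 5.16 and 5.68 against 7.51, 6.15 and 6.59 (1.56 ± 0.34). *Slc20a1*, a phosphate transporter, rose by 1.71 ± 0.26.

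Among the 20 largest decreases were *Mup3*, a major urinary protein, *Dio1*, the deiodinase that activates thyroid hormone, and *Ccnd1*, which encodes cyclin D1. *Mup3* measured 12.00, 11.57 and 11.18 in the WTAL mice and 8.97, 8.87 and 8.58 in the WTCR mice. The groups lay more than 2 log2 units apart, with WTAL replicate 2 in the middle of its group. *Dio1* was at 9.59, 9.58 and 9.64 in WTAL but spread over 7.21, 5.64 and 7.79 in WTCR, so that the restricted mice differed among themselves more than the fed ones. *Lifr*, a subunit of the leukemia inhibitory factor receptor, had a log2 fold change of -2.03 ± 0.40 and *Ces3a*, a carboxylesterase, one of -2.01 ± 0.39. *Serpinb1a*, a serine protease inhibitor, gave -2.09 ± 0.44, *Sdr9c7*, a short-chain dehydrogenase, -1.79 ± 0.16, and *Slc10a2*, a bile acid transporter, -1.78 ± 0.23. *Cxcl9*, a chemokine induced by interferon gamma, fell 3.71-fold and *Fabp5*, a fatty acid-binding protein, 3.58-fold. The remaining decreases were *Ifit1*, *Ifit3*, *H2-Aa*, *Jchain*, *Nfil3*, *Ugt2b37*, *Ugt3a1*, *Keg1*, BC023105 and *Vaultrc5*.

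**Figure D3:**
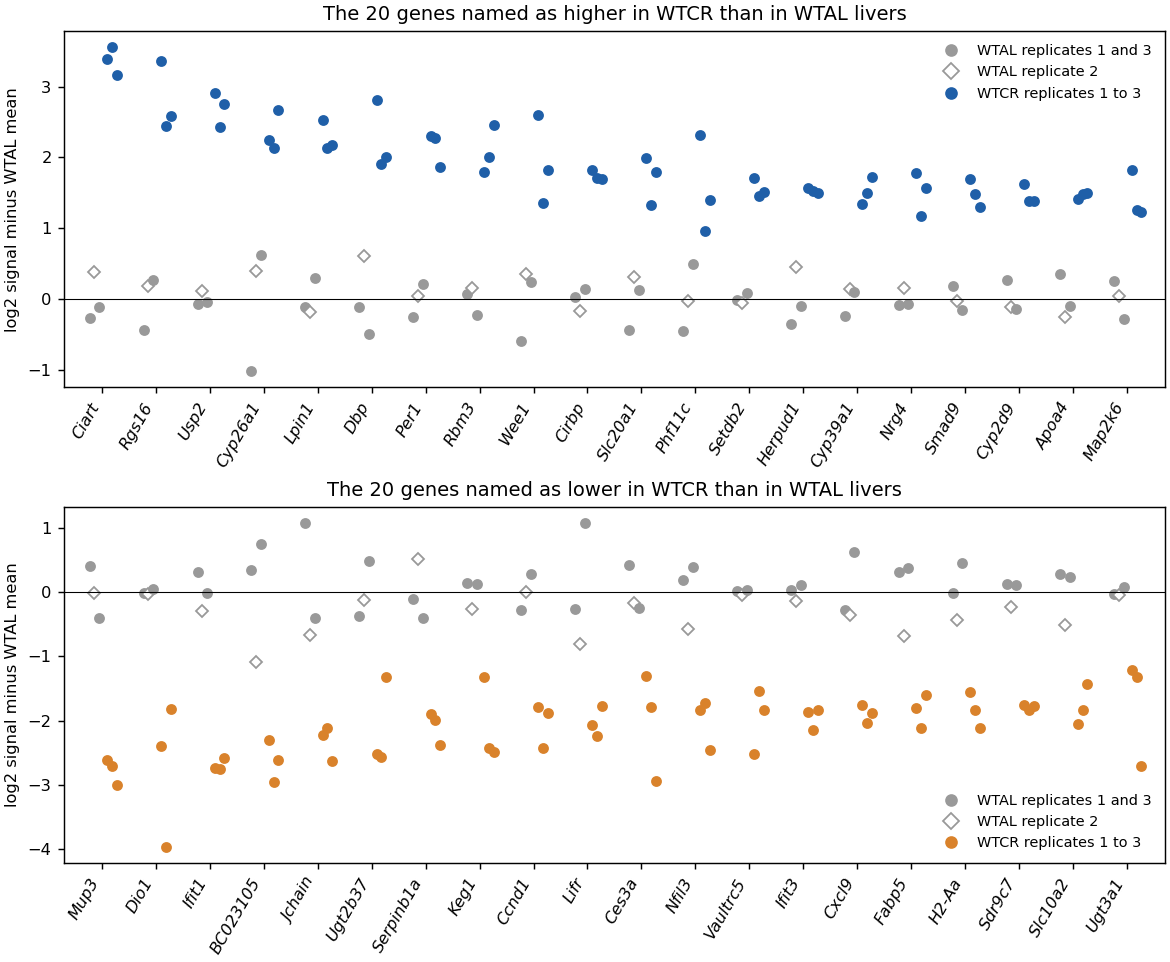
Log2 signal of each mouse minus the WTAL mean of that gene (y axis) for the 20 genes named as higher (upper panel) and the 20 named as lower (lower panel) in WTCR; gray circles are WTAL replicates 1 and 3, open diamonds WTAL replicate 2, and colored circles the 3 WTCR mice. In each of the 40 genes the 3 WTCR mice lie on one side of all 3 WTAL mice, as the choice of these genes required.

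In the core clock, 8 of 15 measured genes rose and 0 fell (9 and 1 without WTAL replicate 2, 2 lower without WTCR replicate 2; median log2 fold change 0.65). Among the genes whose products repress CLOCK and BMAL1, *Per1* was 4.43-fold, *Per3* 2.42-fold, *Cry2* 1.88-fold, *Cry1* 1.74-fold, *Per2* 1.57-fold and the Rev-erb gene *Nr1d2* 1.58-fold higher. Its paralog *Nr1d1* had a log2 fold change of -0.22 ± 0.46, *Bhlhe40* one of 0.74 ± 0.35 and *Bhlhe41* one of 0.26 ± 0.10, and none of these passed the rule with all arrays, although *Bhlhe40* did without WTAL replicate 2 (1.03). *Cry1* measured 6.66, 6.88 and 6.58 in WTAL and 7.37, 7.69 and 7.45 in WTCR mice. *Per2* measured 5.89, 5.97 and 5.68 against 6.77, 6.34 and 6.39. In both, all WTCR mice lay above all WTAL mice. *Arntl*, which encodes BMAL1, had a log2 fold change of -0.90 ± 0.47 and *Clock* -0.46 ± 0.21, and neither passed the rule, although *Arntl* did without WTAL replicate 2 (-1.23) and *Clock* under cyclic loess (-0.52). Of the clock's output, 14 of 19 genes rose and 4 fell (13 and 3 without WTAL replicate 2, 2 lower without WTCR replicate 1; median log2 fold change 0.71). The activators *Dbp*, *Tef* and *Hlf*, which bind the D-box, rose by 2.24 ± 0.33, 1.27 ± 0.15 and 0.71 ± 0.13, while *Nfil3*, which represses through the same box, fell by 2.0 ± 0.30 on the log2 scale. The other probe set of *Ciart*, the brighter of its pair, rose by 2.52 ± 0.19. *Tef* measured 7.54, 7.72 and 7.54 in WTAL and 9.20, 8.73 and 8.68 in WTCR. *Wee1*, a kinase that holds back mitosis, rose 3.80-fold, from 5.52, 6.46 and 6.35 to 8.71, 7.46 and 7.93. WTCR replicate 1 had the highest value of *Per3*, *Dbp*, *Wee1*, *Rgs16* and *Tef*.

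The E-box, the site of CLOCK and BMAL1, was looked for as CACGTG (which reads the same on both strands) in the 250 bases before the start of the RefSeq transcripts of 15612 genes (build GRCm38.p6). It was found in 8.11% of all genes, in 11.2% of those that rose, in 7.30% of those that fell (11.8% and 8.46% without WTAL replicate 2) and in 4 of the 12 core clock genes with such a sequence, *Bhlhe41*, *Ciart*, *Cry1* and *Per1*. A match is a description of the letters and not evidence of binding. The promoters of the 2 clock genes with the largest increases are shown with the E-box in capitals; *Ciart* holds it 3 times, on chr3:95882229-95882478 (minus strand), and *Per1* once in the one of its 2 listed promoters shown, chr11:69098699-69098948 (plus strand).
*Ciart*: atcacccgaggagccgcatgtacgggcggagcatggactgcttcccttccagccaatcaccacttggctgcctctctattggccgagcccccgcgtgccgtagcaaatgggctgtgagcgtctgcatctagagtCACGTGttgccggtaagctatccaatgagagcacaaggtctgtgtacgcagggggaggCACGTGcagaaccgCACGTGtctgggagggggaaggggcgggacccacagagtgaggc
*Per1*: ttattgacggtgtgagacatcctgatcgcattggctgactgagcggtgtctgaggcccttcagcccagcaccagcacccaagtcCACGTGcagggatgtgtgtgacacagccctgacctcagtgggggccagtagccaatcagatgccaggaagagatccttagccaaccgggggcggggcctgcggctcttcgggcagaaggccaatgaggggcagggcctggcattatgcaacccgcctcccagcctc
The D-box TTATGTAA, on either strand, was found in 0.897% of all genes and in 2.15% of those that rose and 1.31% of those that fell (2.20% and 1.36% without WTAL replicate 2). *Per3* holds it 2 times.

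Cold-inducible and heat shock genes moved in opposite ways. *Cirbp* and *Rbm3*, RNA-binding proteins that rise at lower temperature, were 3.35-fold and 4.19-fold higher. *Cirbp* measured 7.43, 7.23 and 7.54 in WTAL and 9.22, 9.11 and 9.10 in WTCR, and all 3 probe sets of *Rbm3* rose, by 2.02 to 2.08. In contrast, 6 of the 21 genes of this list fell (9 without WTAL replicate 2, 8 under cyclic loess; median log2 fold change -0.12), all of them chaperones or cochaperones. *Hsph1*, a nucleotide exchange factor for HSP70, fell 3.29-fold, from 8.42, 8.43 and 8.21 to 6.54, 6.62 and 6.75 (-1.72 ± 0.10, adjusted p = 0.000582). *Hsp90aa1*, the inducible HSP90, measured 11.07, 10.49 and 11.38 against 9.37, 10.03 and 9.88 (-1.22 ± 0.24), *Chordc1* gave -1.12 ± 0.19 and *Stip1*, which links HSP70 to HSP90, -0.70 ± 0.12. *Hspa1a*, the stress-induced HSP70, gave -0.12 and *Hspa8* -0.33, neither of them called, although *Hspa8* passed the rule under cyclic loess (-0.50).

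Chaperones of the endoplasmic reticulum fell as well, 8 of 23 with 1 rising (8 and 1 without WTAL replicate 2, median log2 fold change -0.32; 11 and 1 under cyclic loess, against 5.02% lower and 3.02% higher over all genes there). They fold the plasma proteins that hepatocytes secrete. *Hspa5*, the lumenal HSP70 known as BiP, measured 12.46, 12.45 and 12.32 in WTAL and 11.59, 11.92 and 11.82 in WTCR (-0.64 ± 0.11, adjusted p = 0.023). *Hsp90b1* fell by 0.45 ± 0.09 on the log2 scale and *Pdia6* by 0.83 ± 0.20. Averaged over the 23 genes, the 3 WTCR mice lay at -0.250, -0.243 and -0.212 from the WTAL mean and the WTAL mice between -0.055 and 0.069. *Herpud1*, which acts in the degradation of misfolded proteins, went the other way, 2.89-fold higher (9.92, 10.73 and 10.17 against 11.84, 11.80 and 11.77). *Xbp1* (-0.05) and *Atf4* (0.10), transcription factors of the response to unfolded proteins, did not pass the rule. The ER stress element, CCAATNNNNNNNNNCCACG on either strand, stood before 9 of 21 genes of this list with a sequence, against 0.128% of all genes, and 5 of those 9 fell (4 without WTAL replicate 2). It contains CCAAT, which alone was found in 38.8% of all genes. The promoters of the 2 genes of this list with the smallest p among those that fell are shown with it in capitals, *Hspa5* on chr2:34771840-34772089 (plus strand) and *Hsp90b1*, which holds it 2 times, on chr10:86705445-86705694 (minus strand).
*Hspa5*: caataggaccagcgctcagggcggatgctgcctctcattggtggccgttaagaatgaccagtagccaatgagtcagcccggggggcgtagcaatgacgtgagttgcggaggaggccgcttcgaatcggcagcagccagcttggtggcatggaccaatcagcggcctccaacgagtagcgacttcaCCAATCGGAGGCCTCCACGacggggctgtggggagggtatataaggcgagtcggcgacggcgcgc
*Hsp90b1*: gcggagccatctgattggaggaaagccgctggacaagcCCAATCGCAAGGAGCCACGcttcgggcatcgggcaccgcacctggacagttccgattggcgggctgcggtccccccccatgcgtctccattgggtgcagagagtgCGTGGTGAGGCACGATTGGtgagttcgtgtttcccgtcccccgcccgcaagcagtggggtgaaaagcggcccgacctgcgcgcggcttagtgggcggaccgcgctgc

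Hormone-responsive genes were mixed. Of 18 glucocorticoid-responsive genes 5 rose and 1 fell (5 and 0 without WTAL replicate 2; 3 higher without WTAL replicate 1 and 8 without WTAL replicate 3; median log2 fold change 0.37). *Fkbp5*, an inhibitor of the glucocorticoid receptor that the hormone itself induces, measured 8.48, 8.49 and 8.66 in WTAL and 9.69, 9.91 and 10.18 in WTCR, 2.61-fold higher with no overlap. *Zbtb16* rose by 1.40 ± 0.20, *Klf9* by 0.62 ± 0.17 and *Tsc22d3* by 0.42 ± 0.10, the last of which lost its call without WTAL replicate 1 (0.37) or WTCR replicate 1 (0.35). *Sult1e1*, an estrogen sulfotransferase, had a log2 fold change of 2.37 that did not pass the rule with all arrays and did without WTAL replicate 2 (3.22).

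In the growth hormone and IGF-1 axis 5 of 17 genes fell and 1 rose, both with and without WTAL replicate 2 (median log2 fold change 0.008). *Ghr*, the growth hormone receptor, measured 11.49, 11.36 and 11.91 in WTAL and 10.90, 10.40 and 10.51 in WTCR (1.98-fold lower). *Igfals* and *Igfbp3*, which carry IGF-1 in plasma, fell by 0.83 ± 0.19 and 0.71 ± 0.11 on the log2 scale, and *Igf1* itself by 0.43 ± 0.15, which was no longer called when WTAL replicate 1 (-0.34) or WTCR replicate 3 (-0.31) was left out. *Igfbp2*, a binding protein that rises in fasting, rose by 0.43 ± 0.13, but gave 0.28 and no call under cyclic loess. Growth hormone also sets the sex bias of liver genes. Of 15 male-biased genes 5 rose and 4 fell in these females (4 and 4 without WTAL replicate 2), with *Cyp2d9* 2.77-fold and *Gstp1* 2.07-fold higher and *Mup3* and *Mup21* lower. Of 14 female-biased genes 2 fell and 0 rose (2 and 0 without WTAL replicate 2, 5 fell without WTAL replicate 1, 1 without WTAL replicate 3 and 4 under cyclic loess). One of them, *A1bg*, ranged from 9.68 to 13.36 among the WTAL mice and from 7.94 to 9.95 among the WTCR mice, which overlap, and its call ended without WTAL replicate 3 (-1.78), WTCR replicate 1 (-2.28) or WTCR replicate 3 (-2.57). Of 10 genes of thyroid hormone action *Dio1* alone was called (2 without WTAL replicate 2).

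Genes of fat oxidation rose more often than they fell, 11 against 4 of 38 (13 and 3 without WTAL replicate 2, 8 and 4 under cyclic loess; median log2 fold change 0.17). Of the 38, 29 were in the brightest 10% of probe sets, and without WTAL replicate 1 the increases numbered 7. The decreases numbered 2 without WTAL replicate 3 or WTCR replicate 2. The increases were led by the fatty acid omega-hydroxylases of the Cyp4a family, targets of PPARalpha. *Cyp4a14* measured 11.62, 12.06 and 11.50 in WTAL and 13.24, 13.07 and 13.00 in WTCR, 2.60-fold higher. *Cyp4a31* rose by 1.15 ± 0.21, *Cyp4a10* by 0.83 ± 0.17 and *Slc25a20*, which carries acylcarnitines into mitochondria, by 0.63 ± 0.12. Members of the Cyp4a family are alike in sequence, and probes shared between them would count in each. *Fabp1*, the liver fatty acid-binding protein and another target of that receptor, went the other way. It was at 13.39, 13.42 and 13.43 in WTAL and 12.43, 11.99 and 12.47 in WTCR (2.16-fold lower). *Eci3*, an enoyl-CoA isomerase of peroxisomes, was low in all WTCR mice (5.79, 5.63 and 5.64) but spread over 6.42, 8.60 and 9.15 in WTAL. *Pdk4*, which restrains pyruvate dehydrogenase in fasting, fell by 0.72 ± 0.24 on the log2 scale, a call lost without WTAL replicate 1 (-0.56), WTAL replicate 3 (-0.61) or WTCR replicate 2 (-0.59). *Cpt1a* (0.35), *Ppara* (0.16) and *Fgf21* (0.09), commonly raised by fasting, did not pass the rule.

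In fat synthesis 5 of 20 genes fell and 1 rose (3 and 0 without WTAL replicate 2, 3 fell without WTAL replicate 3 and 1 without WTCR replicate 2, 5 and 0 under cyclic loess; median log2 fold change -0.18). *Acly*, which makes cytosolic acetyl-CoA, measured 10.19, 9.92 and 10.49 in WTAL and 9.76, 9.04 and 9.36 in WTCR (1.76-fold lower) and kept its call in each of the 6 fits that left out 1 array. The main synthase *Fasn* (-0.21) and the desaturase *Scd1* (-0.13) did not pass the rule. Of 28 genes of triglyceride synthesis and lipid droplets 6 rose and 2 fell (5 and 2 without WTAL replicate 2; median log2 fold change 0.08). On the synthesis side, the phosphatidate phosphatases *Lpin1* and *Lpin2* rose by 2.28 ± 0.19 and 0.93 ± 0.19, and *Dgat1* rose by 1.55 ± 0.55 with all arrays and by 0.79 without WTAL replicate 2. The call of *Dgat1* ended without WTCR replicate 1 (1.47) or WTCR replicate 2 (1.54). On the side of lipolysis, *Pnpla2*, the lipase ATGL, rose from 7.0, 7.56 and 7.54 to 8.92, 8.68 and 8.51 (2.52-fold) and *G0s2*, its inhibitor, fell from 9.44, 9.25 and 9.28 to 7.87, 8.0 and 8.11 (2.51-fold). Neither overlapped between groups, and both calls were made again without WTAL replicate 2. *Plin2*, a coat protein of lipid droplets, fell by 1.18 ± 0.31 on the log2 scale.

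Of 20 genes of cholesterol synthesis and uptake 8 fell and 0 rose (10 without WTAL replicate 2, 5 without WTAL replicate 1 or 3, 4 without WTCR replicate 2, 11 without WTCR replicate 1 and 13 under cyclic loess; median log2 fold change -0.35). Under cyclic loess decreases were also more frequent over all genes, 5.02% in place of 4.26%. *Hmgcs1*, at the entry of the pathway, measured 12.80, 12.20 and 12.60 in WTAL and 11.55, 11.15 and 11.10 in WTCR. Averaged over the list, the level was lowest in WTCR replicates 2 and 3, -0.530 and -0.511 from the WTAL mean, against -0.157 in WTCR replicate 1 and -0.177 in WTAL replicate 2, so WTCR replicate 1 and WTAL replicate 2 overlap on it. Among 20 apolipoprotein and lipoprotein genes *Apoa4* rose 2.75-fold (11.26, 10.65 and 10.81 against 12.31, 12.38 and 12.41), and *Apof* fell by 0.55 ± 0.07 on the log2 scale. In all 4 rose and 2 fell there (3 and 1 without WTAL replicate 2, 2 and 2 under cyclic loess; median log2 fold change 0.13), and 1 rose without WTAL replicate 1, WTAL replicate 3 or WTCR replicate 1.

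Genes of glucose release and glycogen changed on both sides, 6 higher and 3 lower of 20 (6 and 2 without WTAL replicate 2, 6 and 3 under cyclic loess; median log2 fold change 0.35). Glucose 6-phosphate must enter the endoplasmic reticulum through the transporter *Slc37a4* before *G6pc* can free glucose. *Slc37a4* rose 2.69-fold (9.86, 10.09 and 10.42 against 11.67, 11.57 and 11.41), while *G6pc* fell 2.68-fold (10.35, 9.68 and 11.29 against 9.21, 8.97 and 8.88). The groups did not overlap in either gene. *Ppp1r3c*, which brings a phosphatase to glycogen, fell 2.76-fold, from 8.43, 8.44 and 8.87 to 7.33, 7.07 and 6.95, and the glycogen synthase *Gys2* rose by 0.89 ± 0.22. *Pck1*, the rate-limiting enzyme of gluconeogenesis, had a log2 fold change of 0.74 ± 0.33 and did not pass the rule.

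Amino acid breakdown and the urea cycle had 10 genes higher and 1 lower of 36, both with and without WTAL replicate 2 (median log2 fold change 0.26). Of the 36 genes 34 were in the brightest 10% of probe sets, and under cyclic loess 6 rose and 5 fell. The alanine aminotransferases, which feed alanine carbon into glucose, rose together: *Gpt* measured 10.15, 10.13 and 10.05 in WTAL and 11.27, 11.20 and 11.01 in WTCR (2.07-fold), and *Gpt2* rose by 0.76 ± 0.11. Both subunits of the branched-chain ketoacid dehydrogenase rose, *Bckdhb* by 0.64 ± 0.09 and *Bckdha* by 0.49 ± 0.10, and so did *Prodh*, the proline dehydrogenase, by 0.91 ± 0.14. *Gpt*, *Gpt2*, *Bckdhb* and *Prodh* were called under cyclic loess too, at 0.93, 0.65, 0.53 and 0.78, and *Bckdha*, at 0.37, was not. *Agxt*, which detoxifies glyoxylate, fell by 0.68 ± 0.20 on the log2 scale. The mean of the list was 0.381 in WTCR replicate 1, 0.241 in replicate 2 and 0.000 in replicate 3, so the last lay among the WTAL mice (-0.054 to 0.054).

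Subunits of the respiratory chain and ATP synthase were higher in 24 of 74 genes and lower in 0 (26 and 0 without WTAL replicate 2). Of the 74 genes, 63 had a log2 fold change above 0, and in 45 all 3 WTCR mice lay above all 3 WTAL mice. Over all genes that share was 11.1%, and it was not computed for bright genes alone, which leaned upward. The changes were small, with a median of 0.304 and a highest value of 0.759 on the log2 scale. They were spread over the complexes: 11 of 34 genes of complex I, 1 of 4 of complex II, 2 of 8 of complex III, 4 of 14 of complex IV and 6 of 14 of ATP synthase rose. Without WTAL replicate 2 there were 5 in complex IV and 7 in ATP synthase, and as many as before in the others. *Ndufv1*, the NADH-binding subunit of complex I, rose most, from 9.20, 9.49 and 9.53 to 10.39, 10.04 and 10.06 (1.69-fold). *Sdhd*, a membrane anchor of complex II, rose by 0.57 ± 0.08, *Uqcrc1* of complex III by 0.57 ± 0.12, *Cox7b* of complex IV by 0.54 ± 0.13, and *Atp5g2*, of the ring of ATP synthase, by 0.59 ± 0.10. The mean of the list lay between -0.004 and 0.006 in the WTAL mice and at 0.208, 0.329 and 0.265 in the WTCR mice. Since 60 of the 74 genes were in the brightest 10%, the brightness trend bears on this group: under cyclic loess 12 rose and 0 fell and the median was 0.158. *Ppargc1a*, the coactivator of mitochondrial biogenesis, and its paralog *Ppargc1b* rose by 1.01 ± 0.17 and 0.51 ± 0.15. The site of the transcription factor NRF1, searched as GCGCANGCGC on either strand, stood before 12 of 63 of these genes with a sequence, against 6.41% of all genes. Of the 12, 3 rose, *Atp5g2*, *Ndufa8* and *Sdhd* (4 without WTAL replicate 2), against 24 of 74 in the whole list. Within the list, holding the site therefore did not set apart the genes that rose.

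**Figure D4:**
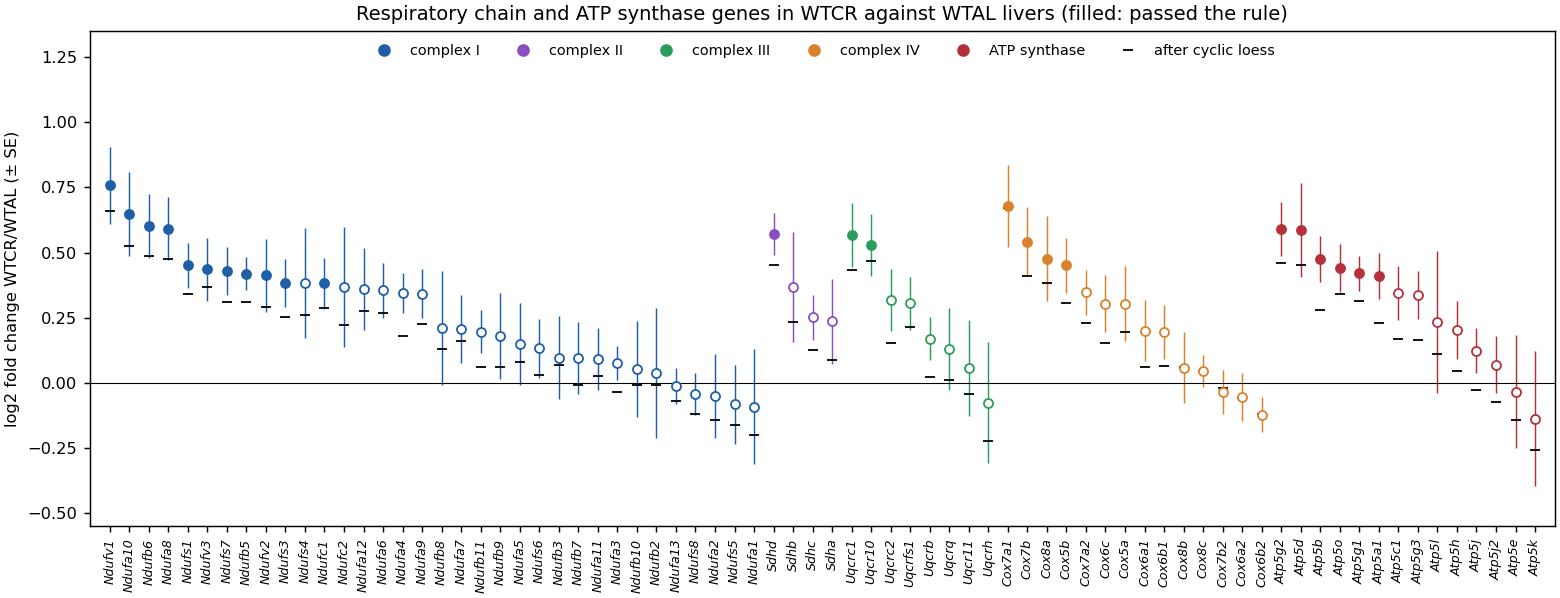
Log2 fold change of WTCR over WTAL (y axis, with SE bars from limma, n = 3 mice per group) of the 74 measured respiratory chain and ATP synthase genes (x axis), ordered by complex and by size; filled circles passed the rule, open circles did not, and black dashes give the value after cyclic loess. Each complex holds filled circles, the values run from -0.138 to 0.759, and most of the dashes lie below their circle.

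Ribosomal protein genes changed more with the normalization. Of 61 cytosolic ones 10 rose and 1 fell (8 and 0 without WTAL replicate 2; median log2 fold change 0.22), but 47 were in the brightest 10%, 1 rose and 1 fell under cyclic loess, and the increases numbered 4 without WTCR replicate 3. The mean of the list was -0.028 in WTCR replicate 1 and 0.321 and 0.286 in the other WTCR mice, against -0.103 to 0.111 in WTAL. Many of these genes have processed copies elsewhere in the genome with which probes may be shared. Of 35 proteasome genes (median 0.02) 3 rose and 1 fell, both with and without WTAL replicate 2 (1 and 1 under cyclic loess, and 1 rose and 0 fell without WTCR replicate 2).

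Some energy sensor and autophagy genes rose. Of 25 energy sensor and sirtuin genes (median log2 fold change 0.13) 5 rose and 0 fell, both with and without WTAL replicate 2 and under cyclic loess. *Prkag1*, a regulatory subunit of the AMP-activated kinase, measured 8.70, 8.93 and 8.66 in WTAL and 9.48, 9.27 and 9.46 in WTCR (1.56-fold higher), and *Nampt*, which makes the precursor of NAD, rose 1.89-fold. The sirtuins, *Sirt1* to *Sirt7*, did not pass the rule, with log2 fold changes from -0.14 (*Sirt4*) to 0.31 (*Sirt7*). Of 35 autophagy and lysosome genes (median 0.18) 5 rose and 1 fell, again both with and without WTAL replicate 2 (5 and 2 under cyclic loess). Of the 35, 18 were in the brightest 10% of probe sets. The 14.3% that rose lay above the 4.0% of all genes but near the 13.5% of that brightest 10%. *Bnip3*, a receptor for mitochondria bound for autophagy, rose from 10.38, 10.51 and 10.30 to 11.38, 11.57 and 11.30 (2.03-fold), and *Map1lc3b*, *Wipi1* and *Ctsl*, which act in the autophagosome membrane and the lysosome, rose by 0.62 ± 0.12, 0.50 ± 0.11 and 0.57 ± 0.13. Of 23 genes of the integrated stress response (median 0.10) 4 rose and 0 fell, both with and without WTAL replicate 2, among them *Trib3* (0.87 ± 0.23) and *Stbd1* (0.59 ± 0.08). Of 22 NRF2 and antioxidant genes (median 0.14, and 0.015 under cyclic loess) 4 rose and 0 fell (5 and 0 without WTAL replicate 2, 4 and 2 under cyclic loess). Since 16 of the 22 were in the brightest 10%, their 18.2% higher is to be set beside the 13.5% there. *Nqo1*, a quinone reductase, measured 6.95, 7.56 and 7.54 against 8.02, 8.14 and 7.97.

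Among drug-metabolizing enzymes, cytochromes P450 rose more often than they fell, while the balance of conjugating enzymes depended on the arrays and the normalization. Among 28 cytochromes P450 of families 1 to 3, of which 22 were in the brightest 10%, 9 rose and 2 fell (8 and 2 without WTAL replicate 2, 6 and 3 under cyclic loess, 5 higher without WTCR replicate 2, 4 lower without WTAL replicate 1; median log2 fold change 0.25). *Cyp3a25* measured 12.61, 12.54 and 12.58 in WTAL and 13.35, 13.30 and 13.33 in WTCR, a difference of 0.75 ± 0.07 with mice of a group almost equal. *Cyp2c39* rose by 0.98 ± 0.14 and *Cyp2b10*, a target of the receptor CAR, by 1.02 ± 0.32, while *Cyp2j5* and *Cyp2c67* fell by 0.70 ± 0.12 and 0.56 ± 0.11 on the log2 scale. Genes of 1 Cyp2c cluster are alike in sequence, and their probe sets may share signal. Of 32 conjugating enzymes (median 0.12), 25 of them in the brightest 10%, 6 rose and 3 fell, both with and without WTAL replicate 2. Without WTAL replicate 1, 6 rose and 6 fell, and under cyclic loess 4 rose and 6 fell. *Tpmt* aside, the increases were glutathione S-transferases, of which *Gsta4*, *Gstm3* and *Gstt3* kept their call in each fit that left out 1 array. *Gsta4* rose most (8.86, 9.81 and 9.81 against 11.02, 10.54 and 10.43, 2.25-fold). The decreases were the glucuronosyl- and glycosyltransferases *Ugt2b37* (4.40-fold) and *Ugt3a1* (3.37-fold) and the sulfotransferase *Sult5a1* (6.75, 7.02 and 7.39 against 5.37, 5.67 and 5.74, 2.75-fold).

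Bile acid genes changed both ways, 3 higher and 5 lower of 20 (2 and 4 without WTAL replicate 2, 5 and 3 without WTCR replicate 2, 2 and 5 under cyclic loess; median log2 fold change -0.10). Of the 20, 17 were in the brightest 10% of probe sets, where 13.5% rose and 8.31% fell. *Cyp39a1*, a 24-hydroxycholesterol 7alpha-hydroxylase, rose 2.86-fold and *Slc51b*, which exports bile acids into blood, 2.45-fold, whereas *Hsd3b7*, which acts after 7alpha-hydroxylation, fell from 11.31, 11.25 and 11.01 to 10.48, 10.39 and 10.44 (1.68-fold). *Cyp7b1* fell by 0.59 ± 0.15 on the log2 scale. *Cyp7a1*, the rate-limiting enzyme of bile acid synthesis, had a log2 fold change of 0.21 and was not called.

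Among growth and secretory genes, 2 of the D-type cyclins fell, *Ccnd1* 4.08-fold (9.20, 9.47 and 9.75 against 7.69, 7.05 and 7.59) and *Ccnd2* 1.82-fold (8.28, 8.25 and 7.94 against 7.48, 7.08 and 7.32), while *Ccnd3* gave 0.11 and was not called. Of 28 genes of G1 and the cell cycle 4 rose and 3 fell (4 and 2 without WTAL replicate 2; median log2 fold change -0.04), and the increases included the inhibitors *Cdkn1c* (0.50 ± 0.10) and *Cdkn2c* (0.47 ± 0.12) and the reductase subunit *Rrm2* (0.66 ± 0.10). The proliferation marker *Mki67* had a log2 fold change of -0.22 and was not called. Of 18 hepatokines (median -0.08) 4 fell and 1 rose, both with and without WTAL replicate 2. *Inhbe*, an activin subunit made by hepatocytes, fell 1.98-fold (6.81, 7.21 and 6.97 against 5.98, 6.11 and 5.95) and *Serpina12*, vaspin, 2.39-fold, while *Angptl4*, an inhibitor of lipoprotein lipase, rose by 0.73 ± 0.17.

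Interferon-stimulated genes formed the most uniform group, with 32 of 35 lower and 0 higher, both with and without WTAL replicate 2, and 30 to 34 lower in the 6 fits that left out 1 array (median log2 fold change -0.71). In 34 of the 35 all WTCR mice lay below all WTAL mice, against 9.29% of all genes. These genes are switched on by interferon, and many of them encode antiviral proteins. *Ifit1* measured 8.17, 7.56 and 7.84 in WTAL and 5.11, 5.11 and 5.27 in WTCR, 6.47-fold lower. *Rtp4* fell 3.17-fold (7.82, 7.93 and 8.29 against 6.67, 6.21 and 6.16), *Irgm1*, a GTPase, 2.36-fold, and *Irf9*, a transcription factor of the pathway, 2.15-fold (8.01, 8.08 and 8.12 against 7.23, 6.53 and 7.13). The 3 genes that did not pass the rule, *Oas1a*, *Bst2* and *Oas3*, had log2 fold changes of -0.38, -0.34 and -0.23. The mean of the list lay at -0.867, -1.055 and -0.787 from the WTAL mean in the WTCR mice and at -0.011, -0.082 and 0.093 in WTAL replicates 1 to 3. Since whole liver was measured, fewer cells of a type and less RNA per cell cannot be told apart here or in the immune genes below.

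The interferon-stimulated response element, searched as GAAANNGAAA on either strand, stood in the 250 bases before 11 of the 26 interferon-stimulated genes with a RefSeq sequence (42.3%), before 6.86% of genes that fell, 2.46% of those that rose (6.41% and 2.36% without WTAL replicate 2) and 3.40% of all. Of the 11 genes 8 fell (9 without WTAL replicate 2). The other 3, *Oas1a*, *Bst2* and *Oas3*, are the only genes of the list that did not pass the rule. Within the list, holding the element therefore did not set apart the genes that fell. Sequences are shown for the 2 genes of the list with the smallest p and for *Ifit1*, the one with the largest decrease, each with 2 matches in capitals, on chr19:34583279-34583528 (*Ifit3*, plus strand), chr11:48871421-48871670 (*Irgm1*, minus strand, where the matches overlap) and chr19:34640639-34640888 (*Ifit1*, plus strand).
*Ifit3*: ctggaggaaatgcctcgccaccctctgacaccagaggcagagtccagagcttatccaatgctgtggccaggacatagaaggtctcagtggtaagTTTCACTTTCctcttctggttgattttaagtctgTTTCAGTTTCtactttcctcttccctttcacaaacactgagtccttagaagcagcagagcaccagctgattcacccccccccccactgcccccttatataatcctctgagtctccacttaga
*Irgm1*: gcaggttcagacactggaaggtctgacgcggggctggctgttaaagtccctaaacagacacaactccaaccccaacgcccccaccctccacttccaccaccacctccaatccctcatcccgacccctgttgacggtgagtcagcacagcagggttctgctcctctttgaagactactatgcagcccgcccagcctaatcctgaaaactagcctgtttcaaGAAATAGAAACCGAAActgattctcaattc
*Ifit1*: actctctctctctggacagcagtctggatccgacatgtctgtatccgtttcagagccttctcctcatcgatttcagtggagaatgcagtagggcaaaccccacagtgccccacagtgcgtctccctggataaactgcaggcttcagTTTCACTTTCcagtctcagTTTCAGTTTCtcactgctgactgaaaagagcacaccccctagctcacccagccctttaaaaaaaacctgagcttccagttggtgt
In all, 16 motifs were searched, and the shares of the E-box, the D-box, the ER stress element, the NRF1 site and this one are given.

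Antigen presentation fell in part. Of 9 genes of MHC class II presentation (median log2 fold change -0.42) 4 fell, both with and without WTAL replicate 2, *H2-Aa* (3.57-fold), *H2-Ab1* (3.02-fold), *H2-Eb1* (2.43-fold) and *Cd74* (2.24-fold, a call lost without WTAL replicate 3, at -0.88, or WTCR replicate 3, at -1.0). *H2-Ab1* measured 8.81, 8.43 and 9.07 in WTAL and 7.24, 7.10 and 7.18 in WTCR. WTAL replicate 2 had the lowest WTAL value of all 4 and still lay above every WTCR mouse. *Ciita*, the master regulator of the class, gave -0.07. Of 14 class I genes (median -0.23) 5 fell, both with and without WTAL replicate 2 (3 without WTAL replicate 3), and 3 of the 5 are catalytic subunits of the immunoproteasome, *Psmb8* (8.51, 8.28 and 8.84 against 7.68, 7.53 and 7.26), *Psmb9* (-0.54 ± 0.16) and *Psmb10* (-0.49 ± 0.16). *B2m*, the light chain, gave 0.00. The calls of *Psmb9* and *Psmb10* ended without WTAL replicate 3 (-0.36 and -0.33), and that of *Psmb10* also without WTCR replicate 3 (-0.36).

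Of 29 acute phase and complement genes 8 fell and 0 rose (6 without WTAL replicate 2, 4 without WTAL replicate 3, WTCR replicate 2 or WTCR replicate 3, 10 without WTCR replicate 1 and 10 under cyclic loess, where 5.02% of all genes fell; median log2 fold change -0.09). *Crp*, C-reactive protein, measured 11.77 in each of the 3 WTAL mice and 10.94, 10.95 and 11.04 in WTCR (1.73-fold lower, adjusted p = 0.00278). *C9*, the last component of the complement membrane attack complex, fell 3.16-fold (10.49, 10.10 and 9.76 against 8.94, 8.58 and 7.85) and the mannose-binding lectins *Mbl1* and *Mbl2* by 1.02 ± 0.13 and 0.57 ± 0.10 on the log2 scale. WTCR replicate 1, with a list mean of -0.018, lay among the WTAL mice, while WTCR replicates 2 and 3 lay at -0.463 and -0.529. Haptoglobin (*Hp*, -0.07) and the fibrinogen chains *Fgb* and *Fgg* (both -0.09) did not pass the rule.

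Markers of the cell types that a piece of liver can hold were measured beside these groups. Of 12 hepatocyte markers 1 rose (*Hnf4a*, 0.40 ± 0.12, a call lost without WTAL replicate 1 at 0.29) and 1 fell (*Onecut1*, -0.75 ± 0.17), and under cyclic loess 0 rose and 1 fell. Of 8 cholangiocyte markers 1 fell. Both counts were the same without WTAL replicate 2. Of 24 Kupffer cell and macrophage markers 9 fell and 1 rose (8 and 1 without WTAL replicate 2; median log2 fold change -0.30). Their mean lay at -0.290, 0.149 and 0.141 in WTAL replicates 1 to 3 and at -0.287, -0.598 and -0.087 in the WTCR mice, so WTAL replicate 1 was as low as WTCR replicate 1. *Clec4f*, a lectin of Kupffer cells, measured 9.44, 9.73 and 9.62 in WTAL and 8.65, 8.72 and 9.16 in WTCR (-0.76 ± 0.14), whereas the Kupffer cell receptors *Vsig4* and *Marco* gave -0.07 and -0.03. Of 15 B and plasma cell markers 4 fell (6 without WTAL replicate 2), with means of -0.428 to -0.379 in the WTCR mice and -0.079 to 0.130 in WTAL. *Jchain*, of secreted immunoglobulin, fell 5.01-fold, and was highest by far in WTAL replicate 1 (7.85, 6.11 and 6.37 against 4.54, 4.66 and 4.15). Of 19 T and NK cell markers 3 fell, *Nkg7*, *Ccl5* and *Cd3g* (4 without WTAL replicate 2), and of 18 stellate cell and matrix genes 4, both with and without it, of which *Col14a1* fell 2.45-fold and *Col3a1* 1.47-fold (7.30, 7.32 and 7.38 against 6.75, 6.81 and 6.78). Of 17 markers of sinusoidal endothelium 1 fell both with and without WTAL replicate 2, *Clec4g* (-1.0 ± 0.12), but 9 fell without WTCR replicate 1, whose mean for the list was 0.020 against -0.388 and -0.352 in the other WTCR mice. Of the 12 neutrophil, 2 erythroid, 8 pancreatic acinar and 5 adipocyte markers 0 were called, both with and without WTAL replicate 2, at log2 fold changes from -0.24 to 0.28. How far the change in immune cell markers accounts for the decreases in interferon, antigen presentation and acute phase genes was not tested.

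**Figure D5:**
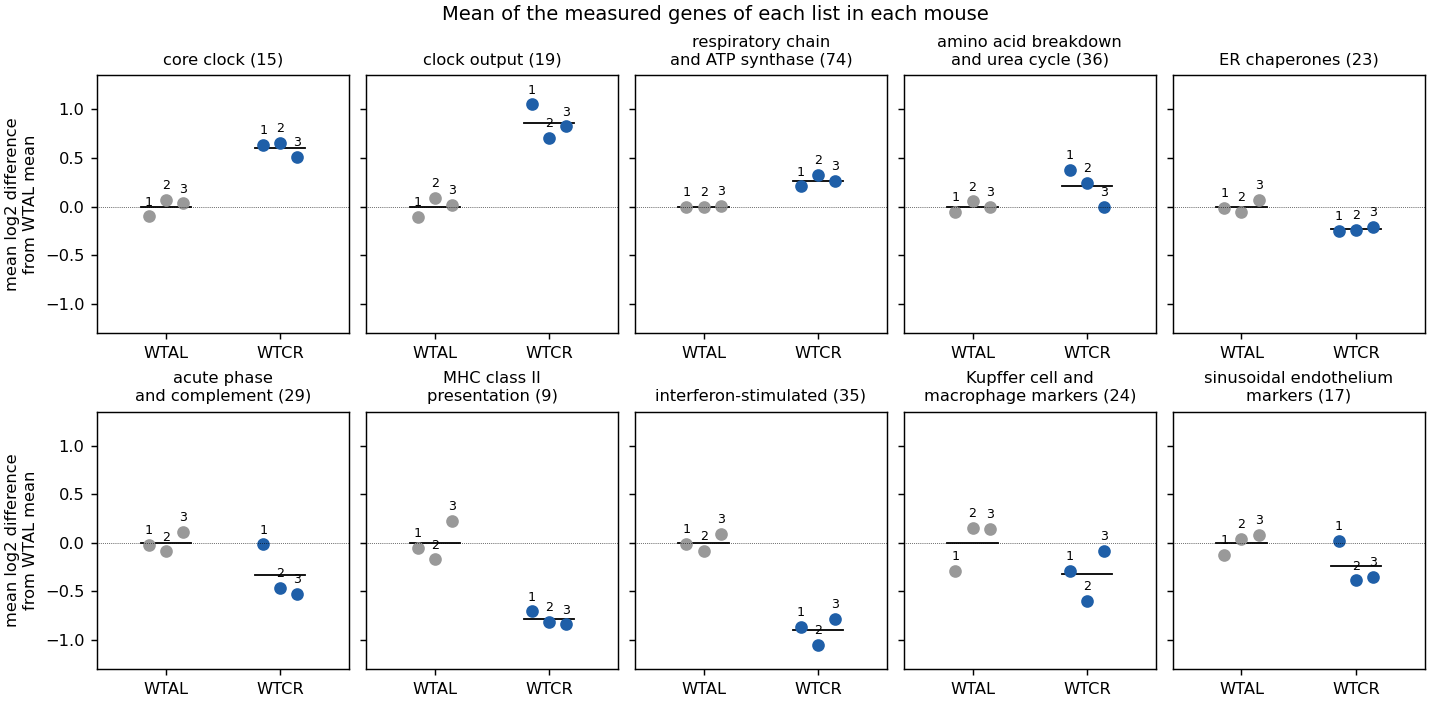
Distance in log2 units from the mean of the WTAL mice (y axis), averaged over the measured genes of 10 lists, the number of genes in brackets, in each of the 3 WTAL (gray) and 3 WTCR (blue) mice, with replicate numbers over the points and a line at each group's mean. For clock, respiratory chain, ER chaperone, MHC class II and interferon genes the groups do not overlap; WTCR replicate 3 lies among the WTAL mice for amino acid breakdown, WTCR replicate 1 for acute phase and endothelial genes, and WTAL replicate 1 near the WTCR mice for macrophage markers.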

How the data were processed

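Whole-liver RNA of 9 female mice was hybridized to Affymetrix Mouse Gene 1.0 ST arrays, and the authors deposited 1 table of log2 signals for 28815 probe sets, normalized by RMA (robust multichip average, which corrects background, equalizes the distributions of the arrays and summarizes probes). Signals are therefore relative to the array, and a shift of most genes one way would not show. A probe set shared by like genes reads their sum. Depth does not apply, and the number of arrays limits the precision.

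Probe sets were named from GEO's platform annotation: 21780 carried 1 symbol, 1605 several and 5430 were unnamed, and symbols were updated through the gene ID for 21689 of the 21780. No filter on signal was used. Limma 3.58.1 in R 4.3.3 fitted 1 mean for each group over all 9 arrays, so that the *Dgat1*-/- arrays add to the estimate of the spread, and the contrast was WTCR minus WTAL. A call needs a fold change over 1.3 and an unadjusted p under 0.05, and Benjamini-Hochberg adjusted p-values were taken over all 28815 probe sets. The sample titles give genotype, diet and a replicate number, and the study's methods give separate mice. The p-values therefore measure the spread between mice within groups, the *Dgat1*-/- mice included. For lists and counts of genes, a gene with several probe sets was represented by the one with the highest mean signal over the 9 arrays.

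The gene lists and the genes named were chosen with earlier results of these data known. The 20 highest and 20 lowest log2 fold changes were named among probe sets with an adjusted p under 0.05, all WTCR arrays outside the range of WTAL and the same call without WTAL replicate 2 (329 increases and 300 decreases met this). In each list up to 4 called members in each direction were named by smallest p, and *Dgat1* as the check of the label. Other members were named after their values were seen. Promoters came from RefSeq (GRCm38.p6), 250 bases upstream of the start, for 15612 genes, without those of 1 chromosome that are not used here, and 16 motifs were searched on both strands. A gene counted as holding a motif where any of its promoters did.

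Each result was recomputed on the 6 arrays alone and without each WTAL or WTCR array. Other fits used array weights, a trended and robust variance prior, cyclic loess, no dim probe sets and the replicate number as a block. No fit left out a single *Dgat1*-/- array. Scripts used Python 3.11.15.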

Additional observations from a re-analysis of the deposited data

How the results depend on the processing

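The counts by fold and unadjusted p stayed within 1.5 times of the 909 increases and 894 decreases under all alternatives run, with 761 to 941 increases and 722 to 1058 decreases when 1 WTAL or WTCR array was left out. The counts at an adjusted p under 0.05 moved more. The 360 increases became 54 to 189 with 1 array left out, 19 on the 6 arrays without WTAL replicate 2, 659 with array weights and 145 with the replicate number as a block. The 318 decreases became 43 to 229, 25, 589 and 143 in the same order. Fewer arrays enter the fits that leave some out. The array weights were lowest for *Dgat1*-/- replicate 1, at 0.355, and 0.802 to 1.63 for the other arrays. On the second principal component of the 9 arrays it lay at 42.1, and *Dgat1*-/- replicates 2 and 3 at -14.2 and -9.1. It enters the estimate of the spread in all fits but those on the 6 arrays. Whether it accounts for the counts with array weights was not tested. Replicate numbers share no deviation between WTAL and WTCR (r = -0.233, 0.045 and -0.075 for numbers 1 to 3 over probe sets), so the samples share only a number and the block has no basis in the design. Of 206 single genes and probe sets followed, 0 reversed under any alternative. The call ended for 18 under cyclic loess, 24 on the 6 arrays without WTAL replicate 2, 13 to 23 with 1 array left out, and at most 3 under the 6 arrays alone, array weights or the block. With 3 mice in a group, 1 of them against its label, small changes are not resolved, and neither timing of feeding nor cell number was measured.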
